A study of Bos taurus with 106 samples.

Results

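The histone and cell cycle genes on this array were H2B, H1-3, PCLAF, UBE2C, CDK2, MCM4, ORC6, ECT2 and CCNA1, followed in the liver of dairy cows around calving. They were chosen by symbol: an element (a spotted cDNA) belonged to the set where the array's gene annotation gave it one of these names. The 9 genes took 11 of the 8208 elements, since CDK2 and CCNA1 had 2 elements each, among 4452 genes with a single symbol. All 11 elements had a value for each of the 53 combinations of cow and day that were sampled. The genes were picked with their time course and diet pattern in view, so their differences between days and between diets are given as descriptions with standard errors and without p-values.

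Liver RNA came from 8 Holstein cows sampled on up to 7 days relative to calving: days -65, -30, -14, 1, 14, 28 and 49. The 4 restricted cows (6877, 6952, 7045 and 7105) were held to about 80% of the NRC requirements through the dry period, the weeks without milking before a calving. The 4 ad libitum cows (6886, 7050, 7161 and 7187) ate freely of the same diet and reached about 120%. The diet is given as 1.60 Mcal per kg. The labels give no diet difference after calving, no age and no cow without one of these treatments. Liver and a reference RNA, mixed from tissues other than liver, were labelled with opposite dyes and hybridised together, and each liver sample was hybridised again with the dyes exchanged. A value here is the log2 ratio of liver to reference, relative to the median element of its array, so a value of 0 is the array's middle element and not equal abundance in both RNAs. Ratios to a reference do not rank genes by abundance, so each element was compared only with itself. There were 53 cow-days, with 3 ad libitum cows on day -65 and 2 on day 49.

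Histones are the proteins around which DNA is wound. H2B is a core histone of the nucleosome and H1-3 a linker histone that binds the DNA between nucleosomes, and the common histone genes are transcribed chiefly in S phase, when DNA is copied. ORC6 belongs to the origin recognition complex that marks where copying starts, MCM4 to the helicase that opens the DNA, and PCLAF binds the sliding clamp PCNA. CDK2 is a kinase of the passage into and through S phase, and CCNA1 is a cyclin that partners it, best known from the germ line. UBE2C is the ubiquitin-conjugating enzyme that works with the anaphase-promoting complex, and ECT2 activates the GTPase RhoA at the cleavage furrow in cytokinesis. Adult liver cells divide rarely, and in ruminants the weeks around calving bring a steep rise in the liver's metabolic load.

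Days -14, 1 and 14 stood apart from the other days in array quality, which bears on every comparison across those days. The 2 dye orientations of a cow-day correlated over elements at 0.485 ± 0.181 (SD, n = 24 cow-days) on these 3 days and at 0.688 ± 0.081 (SD, n = 29 cow-days) on the others. The correlation was under 0.6 in 16 of the 24 and in 4 of the 29. The median absolute gap between orientations over all elements was 0.6 on days -14, 1 and 14 and 0.29 on the other days. On days 1 and 14 the correlation was 0.367 ± 0.201 in ad libitum samples and 0.557 ± 0.151 in restricted samples (SD, n = 8 cow-days each). By its profile over all elements, the day 14 sample of restricted cow 6952 was nearer the mean of the other days (r = 0.91) than that of days -14, 1 and 14 (r = 0.82). It was 1 of 3 such samples of the 24, and the others, ad libitum cow 7050 on day -14 and ad libitum cow 7161 on day 14, had the same rounded r with both means (0.89 and 0.81). Transferrin (TF) and the bile acid transporter SLC10A1, hepatocyte genes, had mean values of 4.65 and 5.17, far above the array's median element, which fits the liver label. The other hepatocyte marker measured, APOA1, was at 1.0.

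H2B was high on days -14, 1 and 14 and low on every other day. Its values ran from -2.3 to -1.58 over days -65 and -30, and from -0.28 to 0.35 on day -14, when every cow lay near the median element of its array. The mean was -1.87 ± 0.2 (SD, n = 7 cows) on day -65 and -2.05 ± 0.18 on day -30, then 0.03 ± 0.22 on day -14, -0.16 ± 0.27 on day 1 and -0.37 ± 0.76 on day 14 (SD, n = 8 cows each). It was -2.16 ± 0.35 on day 28 (n = 8) and -1.99 ± 0.15 on day 49 (n = 6). Across the 24 samples of days -14, 1 and 14 the lowest value was -1.71, the median -0.05 and the highest 0.36, and across the 29 other samples they were -2.6, -2.05 and -1.4. The ranges overlapped between cow 6952 on day 14 at -1.71 and cow 7105 on day 28 at -1.4. Cow 7045 on day 14, at -1.4, and samples of day -65, at up to -1.58, also lay there.

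Between days -30 and -14 H2B was higher by 2.08 ± 0.17 on the log2 scale (SE), and by 1.77 to 2.32 in each of the 8 cows. The difference was 2.09 ± 0.23 in restricted and 2.07 ± 0.23 in ad libitum cows. Both dye orientations gave it, at 2.1 with liver in Cy3 and 2.06 with liver in Cy5. It was 2.04 when cow-days whose orientations correlated under 0.6 were left out. That removed 5 of the 8 cow-days of day -14 and left cow 7161 as its only ad libitum cow.

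From day 14 to day 28 H2B fell by 1.79 ± 0.17 (SE). On day 14 the restricted cows 6877, 6952, 7045 and 7105 read 0.1, -1.71, -1.4 and -0.15, and the ad libitum cows 6886, 7050, 7161 and 7187 read -0.1, -0.18, 0.1 and 0.36. All 4 ad libitum cows were thus still high on day 14, while 2 of the 4 restricted cows were already low. For cow 7045 the orientations disagreed, at -0.62 with liver in Cy3 and -2.18 with liver in Cy5, whereas cow 6952 was low in both, at -1.99 and -1.44. The change from day 14 to day 28 was -1.21 ± 0.23 in restricted and -2.37 ± 0.23 in ad libitum cows, a difference between diets of -1.17 ± 0.33 that did not pass (the rule for a call is given with the histone list). Without cow 6877 that difference was -1.53 ± 0.33 and passed, where 1.39% of all elements did, against 0.0124% with every cow kept. The cows' own changes had an SD of 0.81 in restricted and 0.36 in ad libitum cows (n = 4 each).

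H1-3, the linker histone, followed the same course at a smaller amplitude. Its mean was -1.89 ± 0.31 (SD, n = 7 cows) on day -65, -2.1 ± 0.42 on day -30, -0.44 ± 0.33 on day -14, -0.51 ± 0.48 on day 1, -0.61 ± 0.57 on day 14 and -2.08 ± 0.42 on day 28 (SD, n = 8 cows each), and -2.13 ± 0.36 on day 49 (n = 6). The 24 samples of days -14, 1 and 14 lay between -1.33 and 0.54 (median -0.62) and the 29 others between -2.74 and -1.15 (median -2.09). Cow 6952 on day 14 (-1.33) and cow 7105 on day 28 (-1.15) were again the samples in which the ranges met. H1-3 was 1.66 ± 0.20 (SE) higher on day -14 than on day -30, and 1.47 ± 0.20 lower on day 28 than on day 14. Unlike H2B, its size depended on the dye: the first difference was 2.1 with liver in Cy3 and 1.21 with liver in Cy5. H2B and H1-3 correlated at r = 0.99 over the 14 diet-by-day means and at 0.92 over the 53 cow-days, points that share their arrays and their median centring.

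**Figure D1:**
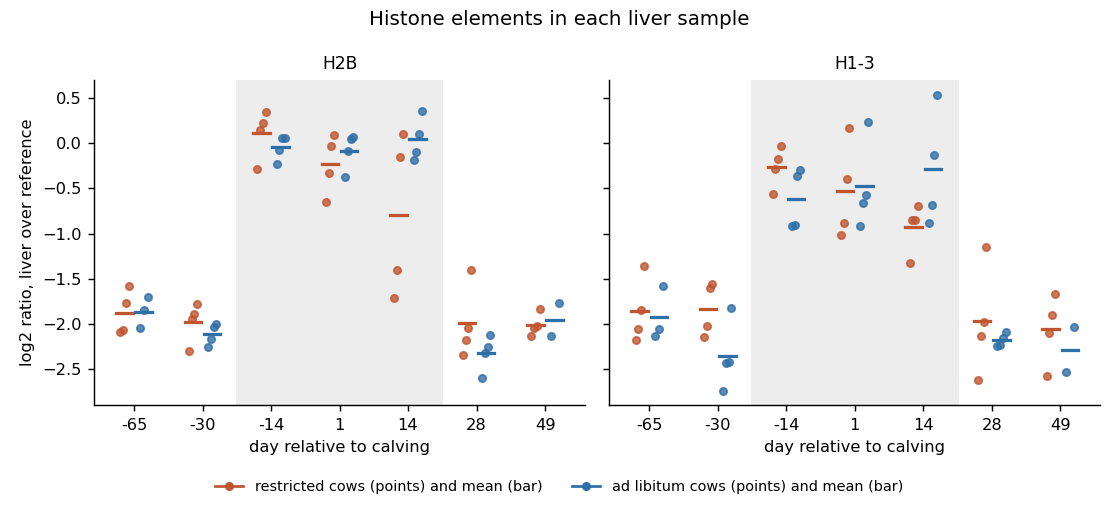
H2B and H1-3 by day relative to calving, as log2 liver over reference relative to the array median, with a point for each cow and a bar for each diet's mean. The grey band marks days -14, 1 and 14, on which H2B lay between -1.71 and 0.36, against -2.6 to -1.4 on the other days.

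The other histone genes on the array were read from a list of histone symbols. It had 12 measured elements of 11 genes, H2B and H1-3 included. On day -14, 8 of the 12 were higher than on day -30 and 0 were lower, and the median difference was 0.72 against 0.06 over all elements. A difference was called where its adjusted p was under 0.05 in limma with Benjamini-Hochberg adjustment over all 8061 tested elements, and by this rule 33.5% of all elements were called between these days, 19.5% as higher and 14% as lower. Without median centring the median difference of all elements was 0.48 at this step and 96.6% of the called elements were higher, against 58.3% with it, so a direction here is relative to the median element. Without H2B and H1-3, 6 of 10 elements were higher and 0 lower, with a median of 0.54. Without the cow-days whose orientations correlated under 0.6, cow 7161 was the only ad libitum cow left on day -14, so no count is given.

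H1-2, another linker histone, rose by 1.49 ± 0.20 (SE, limma adjusted p = 3.3e-07) between days -30 and -14 and fell by 1.58 ± 0.20 (adjusted p = 3.27e-07) between days 14 and 28. Its means over the 7 days were -1.73, -1.96, -0.47, -0.49, -0.41, -1.98 and -1.94, so it tracked H1-3 day by day. H1 genes are alike in sequence, and the labels do not say whether their elements hybridise to one another's transcripts. The core histone variant H2AJ rose by 1.21 ± 0.16 (limma adjusted p = 4.53e-07), and fell by 0.91 later (limma adjusted p = 0.000166). CENPA, the histone H3 variant of the centromere, rose by 0.94 ± 0.11 (limma adjusted p = 3.95e-08) and MACROH2A1, a large H2A variant associated with silent chromatin, by 0.81 ± 0.10 (limma adjusted p = 1.6e-07). Both were lower again on day 28 than on day 14, by 0.57 and 0.61.

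Of the remaining histones, H3-3A and H2AZ1 are replacement variants, which are made outside S phase as well. H3-3A rose by 0.62 between days -30 and -14 (limma adjusted p = 0.0034) and its difference of -0.19 between days 14 and 28 did not pass. H2AZ1 had one element with a rise of 0.45 (limma adjusted p = 0.0075) and another at 0.22 that did not pass. H2BC21 at 0.21, H2AC20 at -0.15 and H2AZ2 at -0.23 did not pass either. At the step from day 14 to day 28, 6 of the 12 histone elements fell and 1 rose, with a median of -0.44 against 0.04 over all elements. The 6 include H2B and H1-3, which were chosen with the time course known and also enter the median. The share of all elements called at that step was 8.62%, 3.71% as higher and 4.91% as lower, and without centring 1.37% of the called elements were higher against 43% with it. The one that rose was H2AZ2, at 0.41 ± 0.13.

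**Figure D2:**
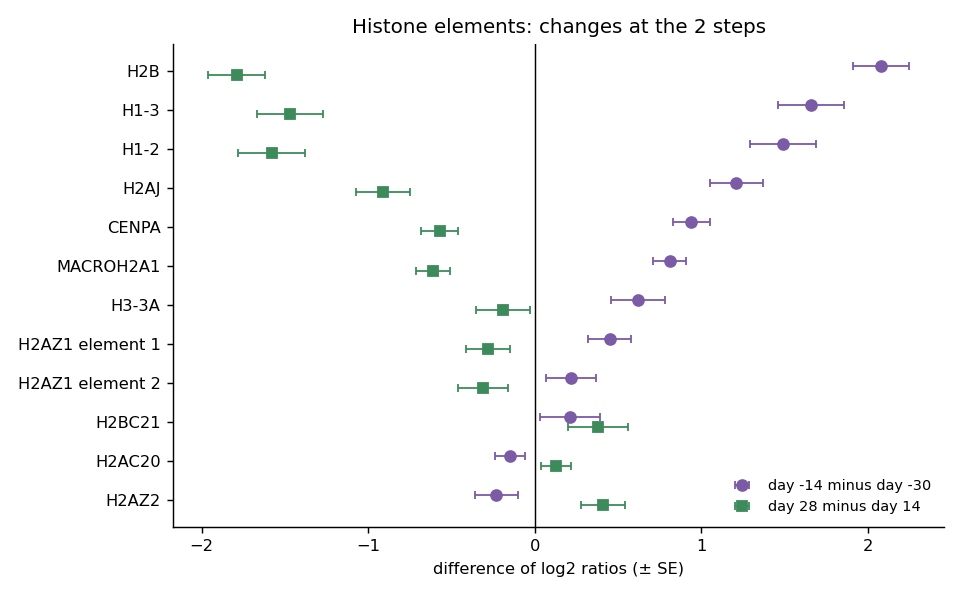
Log2 differences of the 12 histone elements between days -14 and -30 and between days 28 and 14, each with its SE. H2B, H1-3, H1-2 and H2AJ lie farthest above 0 at the first step and farthest below 0 at the second, while H2AZ2 goes the other way at the second step (0.41).

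The list of genes that supply, carry or deposit histones had 16 elements of 13 genes. Across the 7 days 3 of the 16 were called, where 43.4% of all elements were: ANP32E, which removes the variant H2A.Z from chromatin (limma adjusted p = 1.99e-06), an element of the nucleosome assembly protein NAP1L4 (limma adjusted p = 0.000507) and SUPT16H, a subunit of the histone chaperone FACT (limma adjusted p = 0.0381). On day -14, 1 of the 16 was higher than on day -30 and 0 lower (33.5% of all elements called), and 0 were called between days 14 and 28 (8.62%). The one that rose was the NAP1L4 element, at 0.39 ± 0.10 (limma adjusted p = 0.0035), and the other NAP1L4 element was at -0.17 and did not pass.

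Of the replication genes, ORC6 varied little in its day means. Its 53 values lay between -1.08 and -0.17 with a median of -0.63, and its day means between -0.72 and -0.57. Every step between successive days was between -0.15 and 0.07 over both diets, but the diets differed in direction at some steps. From day -65 to day -30 ORC6 changed by -0.19 ± 0.16 in restricted and 0.35 ± 0.27 in ad libitum cows (SD, n = 4 and 3), and from day 1 to day 14 by 0.37 ± 0.27 and -0.29 ± 0.45 (SD, n = 4 each). None of these changes passed within its diet.

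MCM4, a helicase subunit, had day means between -1.63 on day -14 and -1.25 on day 28, but differed by diet after calving. On day 1 the restricted cows read -2.12, -1.96, -1.69 and -1.82 and the ad libitum cows -1.16, -1.38, -1.13 and -1.15. On day 14 they read -1.83, -1.27, -1.65 and -1.8 against -0.88, -1.01, -1.17 and -0.8. Every restricted cow was below every ad libitum cow on both days. The share of all elements separated in this way was not counted. Between diets 10.7% of all elements were called on day 1 and 15.3% on day 14. By day 28 the groups overlapped, at -1.37, -1.32, -1.13 and -1.37 against -1.23, -1.37, -1.02 and -1.16.

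PCLAF, the PCNA-binding factor, was well below the array median on all days, with day means from -3.72 to -3.17. On day -30 the restricted cows read -2.71, -3.46, -2.83 and -3.15 and the ad libitum cows -3.53, -3.06, -3.24 and -3.41. On day -14 the restricted cows read -4.53, -4.03, -3.89 and -4.45 and the ad libitum cows -3.31, -3.08, -3.46 and -3.0. The diets overlapped on day -30 and did not on day -14, when every restricted cow was below every ad libitum cow. On day -14, 6.08% of all elements were called between diets, and the share with separated ranges was not counted. The change between days -30 and -14 was -1.19 ± 0.23 in restricted and 0.10 ± 0.23 in ad libitum cows (SE). The difference between these changes, 1.29 ± 0.32, did not pass the threshold. It passed without cow 6952, at 1.49 ± 0.28, where 0.0124% of all elements passed, against 0% with every cow kept. The orientations of cow 7105 on day -14 disagreed, at -3.45 with liver in Cy3 and -5.45 with liver in Cy5.

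The list of DNA replication genes had 13 measured elements, one for each of 13 genes, and no common direction. Between days -30 and -14, 3 were higher and 2 lower, beside 19.5% and 14% of all elements. The single-strand binding subunits RPA1 and RPA3 rose by 0.66 ± 0.14 (limma adjusted p = 0.000458) and 0.42 ± 0.14 (limma adjusted p = 0.0198), and the clamp loader subunit RFC5 rose by 0.31 ± 0.11 (limma adjusted p = 0.0337). The polymerase alpha subunit POLA2 fell by 0.67 ± 0.18 (limma adjusted p = 0.00365), and PCLAF, chosen with the time course known, was the other that was lower. Between days 14 and 28, 0 of the 13 were called, where 8.62% of all elements were.

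CDK2 gave different answers on its elements. On the first element the mean was -0.38 on day -30, -0.93 on day -14, -0.8 on day 1, -0.6 on day 14 and -0.43 on day 28 (n = 8 cows each). On day 1 the restricted cows read -1.05, -1.93, -1.35 and -0.92 and the ad libitum cows -0.52, -0.24, -0.29 and -0.12. On day 14 they read -1.35, -0.38, -1.13 and -1.36 against -0.06, -0.14, -0.04 and -0.37. The restricted cows were below the ad libitum cows on both days, by a bare margin for cow 6952 on day 14. As for MCM4, the share of all elements separated in this way was not counted. On day 28 the values were -0.61, -0.36, -0.41 and -0.59 against -0.54, -0.47, 0.06 and -0.49, and the groups overlapped.

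The second CDK2 element showed neither pattern. Its day means lay between -1.31 and -1.05, its difference between days -14 and -30 was -0.11 ± 0.14 against -0.55 ± 0.16 on the first element, and the elements correlated at r = -0.4 over the 53 cow-days. Both are annotated to the same gene, and which of them follows the CDK2 transcript was not tested. CCNA1 likewise had elements that differed. Its day means were 0.39, 0.55, 0.19, 0.03, -0.1, 0.29 and 0.39 on one and -0.28, -0.33, 0.03, -0.06, -0.1, -0.15 and -0.39 on the other, and the differences between days -14 and -30, -0.36 ± 0.23 and 0.36 ± 0.16, had opposite signs.

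The list of cyclins, kinases and their regulators had 19 elements of 16 genes. Between days -30 and -14, 6 were higher and 3 lower, beside 19.5% and 14% of all elements, and the list's median difference was 0.06, as over all elements. Between days 14 and 28, 1 was higher and 4 lower, beside 3.71% and 4.91%. Those with the smallest p over the 7 days come first. TFDP1, the dimer partner of E2F factors, rose by 0.91 ± 0.17 (limma adjusted p = 0.000101) and later fell by 0.71 ± 0.17 (limma adjusted p = 0.00516). The G1 kinase CDK6 rose by 0.52 ± 0.12 (limma adjusted p = 0.00116) and cyclin CCND3 by 0.48 ± 0.14 (limma adjusted p = 0.00833). An element of the kinase CDK4 rose by 0.45 ± 0.10 (limma adjusted p = 0.000815) and fell by 0.35 ± 0.10 after day 14 (limma adjusted p = 0.0219). The kinase CDK7, which is part of the general transcription factor TFIIH, fell by 0.6 ± 0.17 (limma adjusted p = 0.00671) and cyclin CCNE1 by 0.38 ± 0.13 (limma adjusted p = 0.0257), named because with the first CDK2 element they made up the 3 that were lower. The first CDK2 element was chosen with the time course known.

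ECT2, the cytokinesis factor, was lower on day -14 than on day -30. On day -30 the restricted cows read -0.38, -0.41, -0.48 and -0.65 and the ad libitum cows -0.9, -0.38, -0.59 and -0.58. On day -14 they read -1.26, -2.18, -1.43 and -1.28 against -0.85, -0.64, -1.4 and -1.1. The difference was -0.72 ± 0.13 over both diets (SE), -1.06 ± 0.19 in restricted and -0.39 ± 0.19 in ad libitum cows. On day 1 the diets separated, at -1.58, -1.7, -1.37 and -1.16 against -0.64, -0.83, -0.35 and -0.49, though how many of all elements did so was not counted. On day 14 they overlapped through restricted cow 6952, at -1.72, -0.39, -0.76 and -1.05 against -0.57, -0.15, -0.61 and -0.56.

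UBE2C had nearly level day means, from -1.03 to -0.78, that hid a wide spread between cows. The SD over cow-days was 0.78 on days -14, 1 and 14 and 0.2 on the other days. On day -14 the restricted cows read 0.21, -2.65, -1.31 and -1.38 and the ad libitum cows -0.49, -0.36, -0.74 and -1.01. On day 1 they read -1.13, -2.52, -1.43 and -1.02 against -0.26, -0.46, -0.16 and -0.07, and on day 14 -1.53, -0.88, -2.02 and -1.36 against -0.12, -0.13, -0.07 and -0.26. Restricted cow 6877 was the highest of all cows on day -14 and below every ad libitum cow on days 1 and 14. The share of all elements whose diets separate on days 1 and 14 was not counted. On day 28 the restricted cows read -0.93, -0.81, -0.78 and -1.05 and the ad libitum cows -0.65, -0.91, -0.39 and -0.74, so the groups overlapped.

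**Figure D3:**
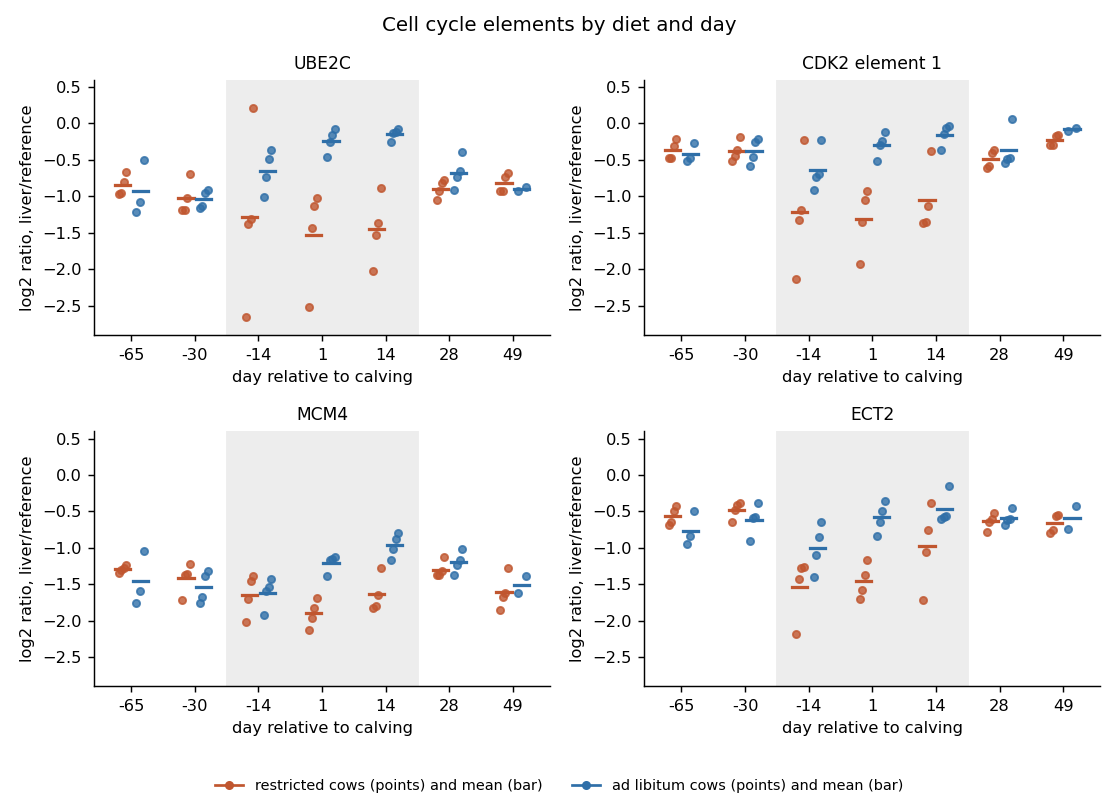
Cell cycle elements by day relative to calving, as log2 liver over reference relative to the array median, with a point for each cow and a bar for each diet's mean. The grey band marks days -14, 1 and 14. For UBE2C the ad libitum cows lie between -0.46 and -0.07 on days 1 and 14, above all restricted cows on those days. The share of all elements separated in this way was not counted.

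Averaged over days 1, 14 and 28, with 1 value for each cow, 4 of the 11 elements were called higher in ad libitum than in restricted cows, where 10.5% of all tested elements were called, 9.83% as higher. Nothing is read from this count, since the genes were chosen with this contrast known. UBE2C was at -0.35 ± 0.12 in ad libitum and -1.29 ± 0.14 in restricted cows (SD, n = 4 cows each), a difference of 0.94 ± 0.11 (SE). The first CDK2 element was at -0.27 ± 0.13 against -0.95 ± 0.05, a difference of 0.69 ± 0.10. MCM4 was at -1.12 ± 0.09 against -1.61 ± 0.13, a difference of 0.49 ± 0.11, and ECT2 at -0.55 ± 0.06 against -1.02 ± 0.23, a difference of 0.48 ± 0.12. In all of these elements no restricted cow's mean reached that of an ad libitum cow. How many of all elements separate the diets in this way was not counted. The groups overlapped for the other 7, among them H2B at 0.22 and H1-3 at 0.16. Over 20 alternative settings UBE2C was called in 18, the first CDK2 element in 17, MCM4 in 14 and ECT2 in 10. The settings in which the call of ECT2 was lost include leaving out cow 7050 (0.48), 7161 (0.45) or 7187 (0.48).

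Day by day, the differences of these 4 elements were larger on days 1 and 14 than on day 28. For UBE2C it was 1.29 on day 1, 1.30 on day 14 and 0.22 on day 28 (SE 0.30 each). The first CDK2 element gave 1.02, 0.90 and 0.13 (SE 0.23 each), MCM4 0.69, 0.67 and 0.10 (SE 0.15 each), and ECT2 0.88, 0.51 and 0.05 (SE 0.19 each). H2B had another course, with 0.14 on day 1, 0.84 on day 14 and -0.33 on day 28 (SE 0.24 each). These SEs rest on a common estimate of the spread over all 14 groups. The SD of H2B on day 14 was 0.9 in restricted and 0.24 in ad libitum cows (n = 4 each). The days were looked at singly after the mean had been seen. The change in the diet difference from day 14 to day 28 passed for 0 of the 11 elements and 0.0124% of all elements, and for UBE2C, the first CDK2 element and MCM4 when the day 14 sample of cow 6952 was left out, a setting in which 7.96% of all elements passed. On day 28 alone 0 of the 11 elements and 0% of all elements were called, against 10.7% of all elements on day 1 and 15.3% on day 14.

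**Figure D4:**
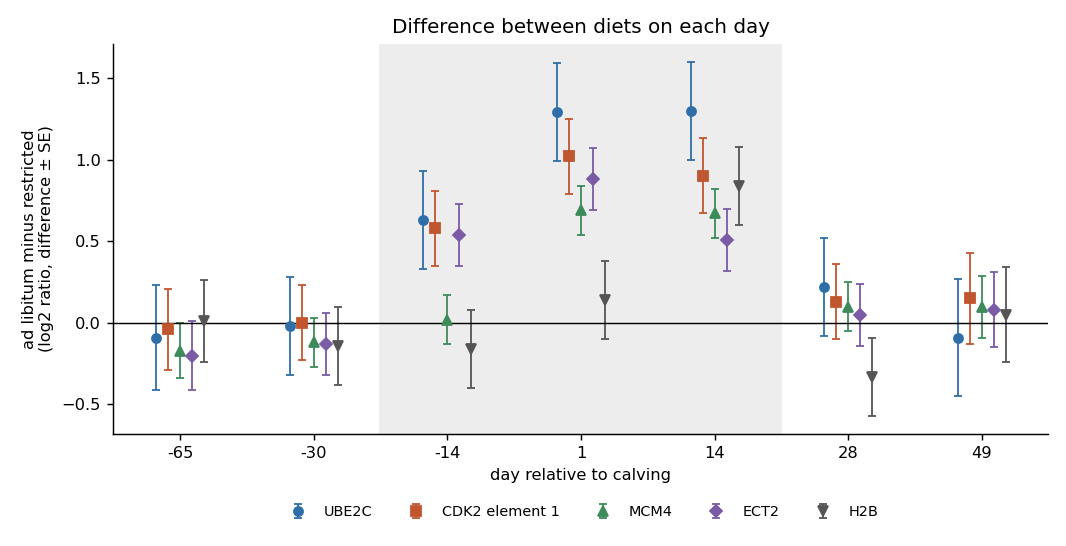
Ad libitum minus restricted, as a log2 difference with its SE, by day for UBE2C, the first CDK2 element, MCM4, ECT2 and H2B. The grey band marks days -14, 1 and 14. UBE2C stands at 1.29 and 1.30 on days 1 and 14 and at 0.22 on day 28.

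Before calving, over days -30 and -14, 0 of the 11 elements and 0% of all elements were called between diets by limma with Benjamini-Hochberg adjustment, while 1050 of 8052 had an unadjusted p under 0.05. The diets' ranges did not overlap for H1-3, at -1.67 to -1.37 in ad libitum and -1.29 to -0.79 in restricted cows (difference -0.44), or for ORC6, at -0.55 to -0.42 against -1.01 to -0.64 (difference 0.26). The share of all elements with separated ranges was not counted, so nothing is read from this. On day -14 alone, a day singled out later, PCLAF was 1.01 ± 0.23 higher in ad libitum than in restricted cows, where 6.08% of all elements were called.

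The list of mitosis and cytokinesis genes had 24 elements of 22 genes. After calving 7 of the 24 were higher in ad libitum cows and 0 lower, where 10.5% of all elements were called, 9.83% as higher. The median over the list was 0.07 against -0.06 over all elements. Leaving aside UBE2C and ECT2, which were chosen with this contrast known, it was 5 of 22, and these 5 are named here because they passed. ANAPC11, ANAPC1, ANAPC5 and CDC23 are subunits of the anaphase-promoting complex, and CDCA8 belongs to the chromosomal passenger complex of the Aurora B kinase. Other subunits of the anaphase-promoting complex on the array did not pass, with differences of -0.13 for ANAPC13, -0.31 for CDC26 and -0.22 for ANAPC16.

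ANAPC11 was at 0.09 ± 0.19 in ad libitum and -0.65 ± 0.06 in restricted cows (SD, n = 4 each), a difference of 0.74 ± 0.11 (SE, limma adjusted p = 0.00139), although its other element differed by 0.03 and did not pass. CDCA8 differed by 0.63 ± 0.12 (limma adjusted p = 0.00392), ANAPC1 by 0.62 ± 0.12 (limma adjusted p = 0.00487), ANAPC5 by 0.49 ± 0.11 (limma adjusted p = 0.00988) and CDC23 by 0.40 ± 0.10 (limma adjusted p = 0.0289). As with UBE2C, the differences were found on days 1 and 14, at 0.93 and 1.14 for ANAPC11 and 0.93 and 0.88 for CDCA8, and shrank to 0.15 and 0.1 on day 28. The list count was 4 higher with orientation agreement as a covariate (7.32% of all elements called) and 2 higher without median centring (4.22%). It was 0 without the cow-days of low agreement or on day 28 alone, settings in which 0% of all elements were called. Leaving out the cow-days of low agreement also changed which days each diet contributed.

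Over time the mitosis list was mixed. Between days -30 and -14, 5 elements were higher and 2 lower, beside 19.5% and 14% of all elements. ECT2, chosen with the time course known, was among those that were lower. No count is given without the cow-days of low agreement, which left cow 7161 as the only ad libitum cow of day -14. Between days 14 and 28, 2 fell, where 4.91% of all elements were called lower. They were CDC20, an activator of the anaphase-promoting complex, by 1.0 ± 0.17 (limma adjusted p = 8.17e-05), and the condensin subunit NCAPD2 by 0.84 ± 0.15 (limma adjusted p = 0.000184). NCAPD2 had risen by 0.53 (limma adjusted p = 0.0061) between days -30 and -14, as had ANAPC13 by 0.37 (limma adjusted p = 0.0122).

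The gap between dye orientations differed by day in elements that were called between diets after calving. For UBE2C the value with liver in Cy5 exceeded that with liver in Cy3 by 1.25 ± 0.53 (SD, n = 24 cow-days) on days -14, 1 and 14 and by 0.45 ± 0.31 (n = 29) on the others. For the first CDK2 element the gap was 0.6 against 0.01, and for MCM4 0.41 against 0.09. H2B had gaps of 0.14 and 0.31, smaller on the days when it was high, and the CCNA1 elements had gaps of -0.85 and -0.84 against -0.15 and -0.12. The diet difference after calving was 0.94 for UBE2C with liver in Cy3 and 0.93 with liver in Cy5, and 0.59 and 0.78 for the first CDK2 element. For MCM4 it was 0.4 and 0.58, and for ECT2 0.33 and 0.62.

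**Figure D5:**
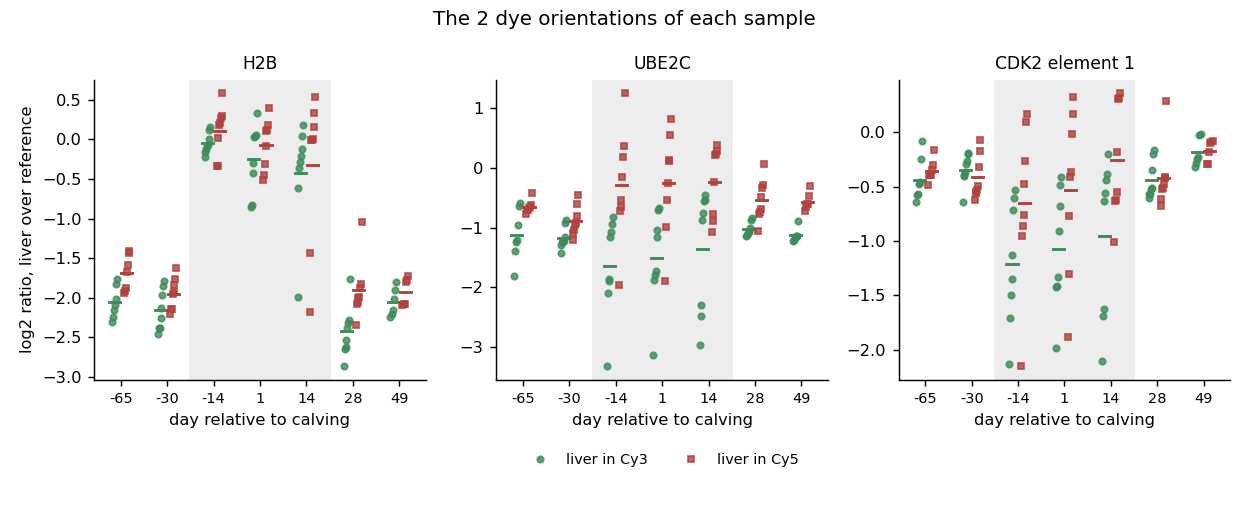
Values of H2B, UBE2C and the first CDK2 element in each dye orientation by day, with circles for liver in Cy3, squares for liver in Cy5 and bars for their means. The grey band marks days -14, 1 and 14, on which the orientations of UBE2C differ by 1.25 on average, against 0.45 on the other days.

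Orientation agreement moved with diet on days 1 and 14. With that agreement as a covariate the diet difference was 0.94 ± 0.16 for UBE2C, 0.74 ± 0.14 for the first CDK2 element, 0.45 ± 0.15 for MCM4 and 0.44 ± 0.18 for ECT2 (SE). Without the cow-days of low agreement, which removes all 4 ad libitum samples of day 1, it was 0.52 ± 0.21 for UBE2C and 0.34 ± 0.19 for the first CDK2 element. Ad libitum cows 6886, 7050 and 7187 then kept only day 28, and cow 7161 only day 14. Restricted cows 6877 and 6952 kept days 1, 14 and 28, and cows 7045 and 7105 only day 28. These values thus compare different days between diets, and cannot be set beside the others as the same difference. Of the 11 elements 2 were called with the covariate, where 7.32% of all elements were. Without the cow-days of low agreement 0 of the 11 and 0% of all elements were called, in that same mix of days. The part of array quality in the difference was not tested.

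Over time, 5 of the 11 elements were called across the 7 days, where 43.4% of all elements were: H2B, H1-3, the first CDK2 element, MCM4 and ECT2. Between days -30 and -14, H2B and H1-3 were called higher, and PCLAF, the first CDK2 element and ECT2 lower. PCLAF was not called without cow 6877 (-0.44) or with liver in Cy3 only (-0.47), the first CDK2 element not with liver in Cy5 only (-0.24) or without cow-days of low agreement (-0.58), and none of these 3 without centring. The step from day 14 to day 28 had H2B and H1-3 called lower. No element of the 11 was called between days -65 and -30 (0.112% of all elements), -14 and 1 (0.397%), 1 and 14 (0.707%), or 28 and 49 (0.0124%). These genes were chosen with the time course known, and nothing is read from their counts.

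In restricted cows 5 elements were called between days -30 and -14, where 30.1% of all elements were: H2B and H1-3 were higher (17.7% of all elements) and PCLAF, the first CDK2 element and ECT2 lower (12.4%). In ad libitum cows H2B and H1-3 were called higher, where 4.99% of all elements were called, 2.99% as higher. H2B and H1-3 were called lower between days 14 and 28 in restricted cows (1.95% of all elements called) and in ad libitum cows (5.43%, with 2.69% higher and 2.74% lower). Between days 1 and 14, 0 of the 11 were called in restricted cows, where 1.38% of all elements were, 1.2% as lower. H1-3 was higher on day -14 by 1.57 ± 0.28 in restricted and 1.74 ± 0.28 in ad libitum cows, and the first CDK2 element differed by -0.84 ± 0.23 and -0.26 ± 0.23 (SE). For 0 of the 11 did the test of a difference between diets pass for the change from day -30 to day -14, where 0% of all elements were called.

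Markers of other liver cell types moved over the same days. In whole liver, fewer cells of a type and less RNA per cell cannot be told apart. The 3 hepatocyte marker elements (TF, SLC10A1 and APOA1) had a mean level over the list from 2.8 to 4.19 (median 3.03) on days -14, 1 and 14 and from 3.62 to 4.54 (median 3.99) on the other days, and 2 of the 3 fell between days -30 and -14. The neutrophil marker S100A12, the only one of its list measured, ran from 1.16 to 3.42 (median 2.24) against 0.59 to 1.92 (median 1.12). Of 7 sinusoidal endothelial elements 1 rose and 3 fell between days -30 and -14, of 11 Kupffer and macrophage elements 2 rose and 4 fell, and of 7 stellate and fibroblast elements 4 rose and 0 fell. At this step 19.5% of all elements were called higher and 14% lower. Of 3 T and NK cell elements 1 rose, CD8A by 0.62 (limma adjusted p = 0.00289), the B and plasma cell marker MZB1 fell by 0.5 (limma adjusted p = 0.0471), and 0 of 2 biliary elements were called.

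Between diets after calving, 2 of the 7 endothelial elements were lower in ad libitum cows, and of the 11 Kupffer and macrophage elements 1 was higher and 2 lower. Among 3 T and NK cell elements 1 was lower, and among 2 biliary elements 1 was higher. Over all elements 9.83% were called higher and 0.684% lower in ad libitum cows. The Kupffer and macrophage list had a mean level over its elements from 2.14 to 3.12 (median 2.36) in ad libitum and from 2.53 to 3.7 (median 2.8) in restricted samples of days 1 and 14. The endothelial list ran from 0.95 to 1.47 (median 1.12) in ad libitum and from 1.13 to 1.66 (median 1.21) in restricted samples of those days. The part of these cell types in the histone and cell cycle values was not tested.

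The elements whose pattern was most like each gene's were found by Pearson correlation over the 14 diet-by-day means, which share their arrays. Nearest to H2B were PLEKHM2 (r = 0.985), LAMA5 (0.982) and the histone MACROH2A1 (0.981). For H1-3 they were H1-2 (0.989), ID1 (0.987) and MACROH2A1 (0.978), so each histone had another histone gene among its nearest 3. The first CDK2 element had DOCK10 (0.994), PSMD5 (0.993) and FBXL6 (0.993), UBE2C had RBM4 (0.972), STK24 (0.964) and COPG2 (0.963), and ECT2 had NSMCE2 (0.968), TYRO3 (0.965) and WDR17 (0.96), none of them from the cell cycle lists. Nearest to MCM4 was INO80E (0.924), to PCLAF SERPINI1 (0.871), to the second CDK2 element PTPN6 (0.878), and to the CCNA1 elements TLK2 (0.936) and JOSD1 (0.836). ORC6, which varied least, had the weakest likeness, with ANKRA2 at 0.791.

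Among themselves the genes fell into separate patterns. Over the 14 diet-by-day means the first CDK2 element correlated with ECT2 at r = 0.93 and with UBE2C at 0.74, and UBE2C with MCM4 at 0.82. H2B had r = 0.1 with UBE2C and -0.51 with the first CDK2 element. PCLAF correlated with ECT2 at 0.86, and with H2B at -0.36. ORC6 stayed between 0.08 and 0.28 with UBE2C, the first CDK2 element, MCM4 and ECT2.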

How the data were processed

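Bovine cDNA arrays compared liver with a reference in 2 colours. The authors deposited a log2 ratio of Cy5 over Cy3 for each spot, after scanning and GenePix 4.0 per the labels; their normalization is not given in the sources used here, and the scale and direction were read from the values. Of 106 arrays, 1.228% of spot values were missing, and spot pairs correlated at 0.9 (median; lowest 0.687). Dyes were taken from the titles, since 4 source texts name the opposite dye. The number of arrays limits the precision.

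Values were averaged over 2 spots, turned to liver over reference, centred on each array's median, and averaged over both orientations, which made 1 value per cow-day. Requiring both orientations was chosen after seeing the data. This left 8061 of 8208 elements to test, and 147 with too few values. Limma 3.58.1 in R 4.3.3 fitted 14 diet-by-day means with the cow as a random block, since the same cows recur across days (correlation within cows 0.0176). All 14 means share a common estimate of the spread, so their SEs do not follow the spread of a single day or diet. Diet comparisons used 1 value per cow. Benjamini-Hochberg adjustment ran over all tested elements, with a threshold of 0.05. Samples of a group are different cows. In the fit of 14 means, p-values set a difference against the spread within groups, pooled over all of them. In the comparisons with 1 value per cow they set it against the spread between cows of the same diet. The scripts were tested on simulated data.

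Genes and lists were chosen with earlier results of these data known. From each list up to 4 other elements with the smallest p over the 7 days were named, with those that make up a small count, and 3 most alike elements per gene. Alternatives covered centring, quantile normalization, single orientations, orientation agreement (limit 0.6), complete elements, single spots, the block, and leaving out each cow.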

Additional observations from a re-analysis of the deposited data

Results flagged for a closer look

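Of 132 groups of 4 cows tested, 6 held a cow far from the other 3 (Dixon's test, which chance alone meets in about 1 group in 20). On the first CDK2 element, ad libitum cow 7161 was at 0.06 on day 28, with the others between -0.54 and -0.47. For MCM4, ad libitum cow 7050 was at -1.38 on day 1, with the others between -1.16 and -1.13. For ORC6, restricted cow 6877 was at -0.63 on day 28 (others -0.79 to -0.77) and restricted cow 7045 at -0.53 on day 49 (others -0.81 to -0.77). For ECT2, ad libitum cow 7050 was at -0.15 on day 14 (others -0.61 to -0.56). On the first CCNA1 element, restricted cow 6877 was at -0.76 on day 1, with the others between 0.49 and 0.75.

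In 2 cases every cow of one diet moved against every cow of the other. The share of all elements in which this happens was not counted. UBE2C changed from day 14 to day 28 by 0.56 ± 0.50 (SD, 0.08 to 1.24) in the 4 restricted cows and by -0.53 ± 0.19 (-0.78 to -0.32) in the 4 ad libitum cows. The difference of -1.08 ± 0.42 (SE) did not pass in limma, and passed without cow 6952 (-1.24 ± 0.31) or without its day 14 sample (-1.29 ± 0.42). In those settings 9.78% and 7.96% of all elements passed, against 0.0124% with every sample kept. ORC6 changed from day -65 to day -30 by -0.19 ± 0.16 (SD, -0.4 to 0.0) in restricted cows and by 0.35 ± 0.27 (0.18 to 0.66, n = 3) in ad libitum cows. That difference of 0.54 was not tested.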

How the results depend on the processing

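For the 11 diet differences before and after calving and the 7 differences called at the steps to day -14 and day 28, 527 alternative values kept their direction and side of the threshold, 28 lost the call, 1 gained it and 17 reversed; the cause was not tested. Of the 11 elements, 5 were called between days -30 and -14, beside 33.5% of all elements, and 3 without centring (42.9%). Between days 14 and 28, 2 were called (8.62%), and 4 without centring (31.6%). The diet count after calving was 4 (10.5% of all elements), and 1 without centring (4.22%). It was 2 with quantile normalization (9.12%), with liver in Cy3 only (5.49%) or with agreement as a covariate (7.32%). It was 0 without low-agreement cow-days or on day 28 only (0% each), and the former compared different days between diets. The count for diet by the step from day 14 to day 28 was 3 without the day 14 sample of cow 6952 (UBE2C, CDK2, MCM4). In that setting 7.96% of all elements passed. Leaving out each cow gave 0 to 1 for diet by the step to day -14 and 0 to 3 for diet by the step to day 28. The shares of all elements passing ran from 0% to 0.0372% and from 0% to 9.78%. Of differences not called with the settings of the report, UBE2C ran from -0.47 to 0.6 and MCM4 from -0.34 to 0.27 between days -30 and -14. The fit with no replicate block gave 5 and 2 calls at the time steps, as with the block by cow.

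Reversed diet differences, none of them called, were as follows. Before calving, day -30 alone gave PCLAF -0.27, UBE2C -0.02, CDK2 0.0 and 0.05, ECT2 -0.13 and CCNA1 -0.09. PCLAF was 0.0 without low-agreement cow-days, CCNA1 -0.11 with liver in Cy3, and MCM4 0.0 with liver in Cy3, 0.03 with the covariate, 0.02 on day -14 alone and 0.01 without cow 6877. After calving H2B was -0.18 and the second CDK2 element 0.06 without low-agreement cow-days, day 28 alone gave H2B -0.33 and H1-3 -0.22, and days 1 and 14 gave CCNA1 0.0.

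Over all elements, 845 were called between diets after calving, 339 without centring, 442 with liver in Cy3 and 0 without low-agreement cow-days. Between days 14 and 28, 695 were called, 2551 without centring, 2349 with liver in Cy3, 208 with liver in Cy5 and 1091 without cow 6952. Between days -30 and -14, 2703 were called, and 1798 without cow 7187. Over the 7 days 3496 were called, 2163 with the covariate. Without centring the median difference of all elements was -0.44 between days 14 and 28, and the share of calls that were higher went from 43% to 1.37%. Without centring PCLAF was -0.13, CDK2 -0.13 and ECT2 -0.3 between days -30 and -14, and none passed. Without low-agreement cow-days no ad libitum sample of day 1 was left, and 3 comparisons that need it were not run. Cow 7161 was then the only ad libitum cow on days -14 and 14. The diet comparison after calving then used day 28 of ad libitum cows 6886, 7050 and 7187 and day 14 of cow 7161, against a different mix of days in restricted cows. Some alternatives were added after seeing the data: single days, 1 orientation sufficing, and leaving out the day 14 sample of cow 6952.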
